A study of Mus musculus with 20 samples.

Results

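The comparison described here sets 3 arrays of IkB-DN pre-B lines, in which DNA breaks made by the RAG recombinase stay unrepaired while NF-kB is blocked, against 3 arrays of RAG-2-deficient pre-B lines, in which no such breaks are made. These 6 arrays were chosen by their labelled source from the 20 arrays of the series, and 21647 probe sets were tested. All were mouse pre-B lines made with the oncogene v-abl, and all had spent 48 hours in 3 uM STI571 (imatinib), a blocker of v-abl kinase activity. The IkB-DN lines lack Artemis, the nuclease that opens the hairpin ends left by RAG, and carry a dominant negative form of IkB, the inhibitor that holds NF-kB in the cytoplasm. The RAG-2-deficient lines lack one of the 2 RAG subunits and served the study as controls. Their titles hold the letters Bcl, which the labels do not explain, and wild type replicate 3, so grouped by its labelled source, carries the title ATM-2A. Lines of 3 other genotypes were given the same treatment and entered the same fit: Artemis-deficient lines without the dominant negative IkB (n = 3), Artemis- and ATM-deficient lines (n = 2) and wild type lines (n = 3). The labels call the samples of each group biological replicates. They do not say whether the 3 IkB-DN samples come from 1 parental line, from which IkB gene the dominant negative form was made, or from which mouse strains the lines were derived.

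RAG is known to cut at antigen receptor genes in arrested pre-B cells, and the ATM kinase reports the cut to the cell. One branch of that signal runs through the IkB kinase complex, which marks IkB proteins for destruction and frees NF-kB dimers built from Rel, Rela, Relb, Nfkb1 and Nfkb2 products. Freed NF-kB induces, among others, the genes of its own inhibitors (Nfkbia, Nfkbie, Tnfaip3), adhesion and homing molecules and survival factors. A dominant negative IkB is not destroyed and keeps the dimers out of the nucleus. The question of this comparison is which transcripts differ when breaks are present and this branch is held down.

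The promoters of some of these genes hold the binding sequence that gives NF-kB its name. The search used the kB consensus by that name, on both strands, in RefSeq promoter windows of GRCm38.p6 that run from 250 bases before to 50 bases after a gene start. A match was found in 9.55% of 27025 genes with a window, in 7 of the 11 IkB family and brake genes with a window, and in 11 of the 27 NF-kB target genes with one. The last 120 bases before the start of 4 genes are shown 5′ to 3′ on the strand of the gene, with every match in capitals, because the IkB-DN lines compared differently with the other groups on these genes and each window holds a match. The windows lie at chr17:45555580-45555699 on the plus strand (Nfkbie), chr12:55492648-55492767 on the minus strand (Nfkbia), chr19:46304617-46304736 on the plus strand (Nfkb2) and chr10:19015411-19015530 on the minus strand (Tnfaip3).
Nfkbie: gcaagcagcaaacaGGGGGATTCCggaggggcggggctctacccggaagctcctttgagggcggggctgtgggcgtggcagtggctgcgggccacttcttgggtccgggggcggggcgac
Nfkbia: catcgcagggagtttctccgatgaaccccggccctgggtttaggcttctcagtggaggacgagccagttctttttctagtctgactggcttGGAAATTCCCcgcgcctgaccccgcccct
Nfkb2: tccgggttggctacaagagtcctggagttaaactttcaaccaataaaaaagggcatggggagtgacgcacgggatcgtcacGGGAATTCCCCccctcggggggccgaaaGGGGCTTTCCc
Tnfaip3: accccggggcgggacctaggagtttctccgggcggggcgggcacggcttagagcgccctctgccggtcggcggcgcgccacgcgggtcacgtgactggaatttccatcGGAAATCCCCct
Counted from the gene start, the match lies at −106 to −97 in Nfkbie, at −29 to −20 in Nfkbia and at −12 to −3 in Tnfaip3. In Nfkb2, overlapping matches on the 2 strands form 1 capital run and a further match ends at −2. A match is a description of these letters and not evidence of binding.

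One feature of the arrays bears on every result and is given first. The 3 IkB-DN arrays correlated with each other at 0.976 to 0.983 over the probe sets kept, beside 0.982 and 0.984 for the pairs of technical arrays of the 2 Artemis- and ATM-deficient samples. Replicates of the other groups correlated at 0.902 to 0.947. The IkB-DN arrays also correlated at 0.939 to 0.944 with Artemis-deficient replicate 3, which itself correlated with the other Artemis-deficient replicates at 0.916 to 0.921. The IkB-DN replicates are thus almost as alike as technical arrays, and differences between lines and effects of the dominant negative IkB cannot be told apart in this design. With the 3 IkB-DN arrays averaged into 1 sample, assumed to vary like the other groups, 7 of the 1038 genes called against the RAG-2-deficient lines kept the call (limma): Akr1c13, Tnfsf10, Tceal9, Wasf2, Limd1, Ahcyl2 and Tpp1. Every other call against these controls given here for a gene by its brightest probe set was lost in that fit. With wild type replicate 3 left out, an alternative chosen after seeing the data, Kynu, Atr, Cdk6 and Hmox1 lost the call against the controls (adjusted p up to 0.0554) and Trim30a, Dntt and Ltb gained it (0.00526, 0.0333 and 0.0201).

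**Figure D1:**
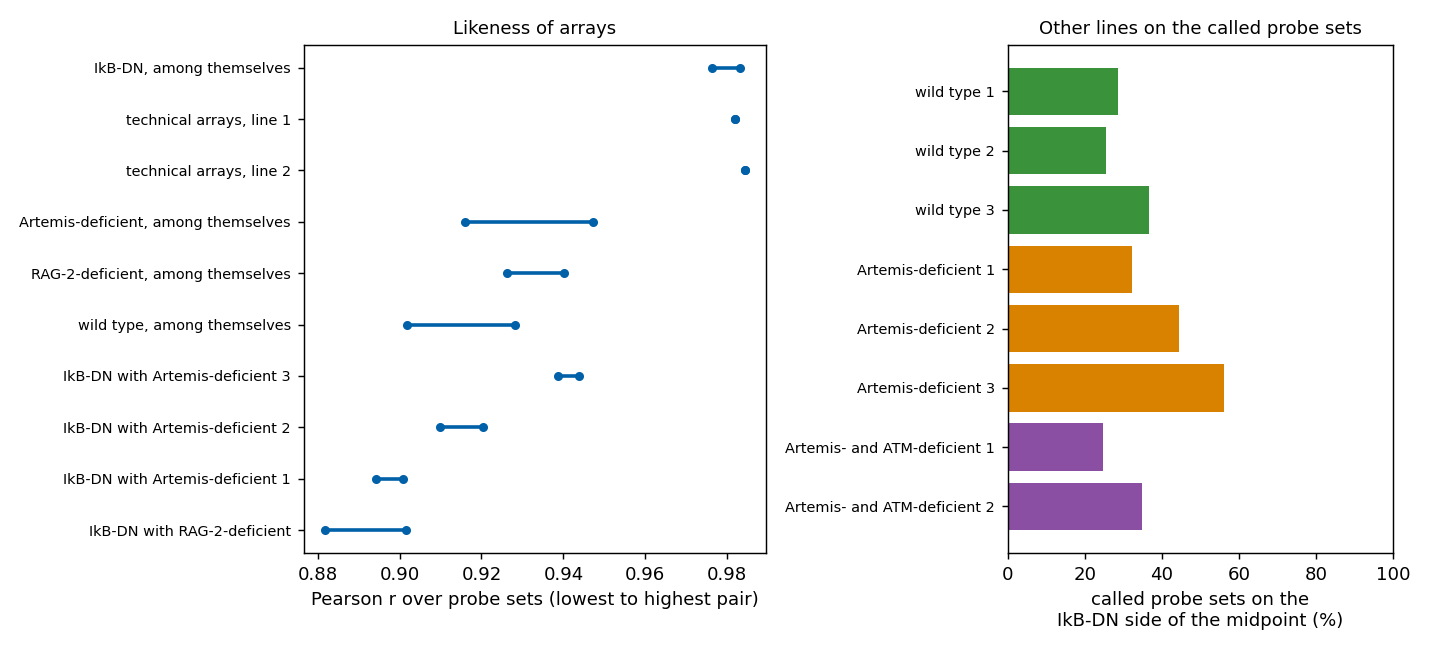
Left, Pearson correlation over the probe sets kept, from the lowest to the highest pair (dots) within or between the groups named; right, the share of the probe sets called between IkB-DN and RAG-2-deficient lines on which each other line sample lies on the IkB-DN side of the midpoint of those 2 groups, with a bar per sample. The IkB-DN arrays sit beside the technical arrays, at 0.976 and above, and Artemis-deficient replicate 3 has the longest bar at 56.2%.

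With the 3 arrays kept as 3 samples, 2145 of 21647 probe sets (9.91%) passed an adjusted p of 0.05 (limma, two-sided, Benjamini-Hochberg). Of these, 1086 were higher (5.02%) and 1059 lower (4.89%) in the IkB-DN lines, and 1151 differed by a log2 of 1 or more in either direction. Counting 1 probe set per gene, 1038 of 9779 genes (10.6%) were called, 585 higher (5.98%) and 453 lower (4.63%). The groups of 3 did not overlap for 1003 of these 1038 genes. They did not overlap for 38.3% of the 9591 genes measured in all 6 samples. The count was 968, 844 and 1149 probe sets without IkB-DN replicate 1, 2 and 3, and 1247, 1454 and 1366 without RAG-2-deficient replicate 1, 2 and 3. It was 24 probe sets, 7 of them representing a gene, when the IkB-DN arrays were averaged.

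**Figure D2:**
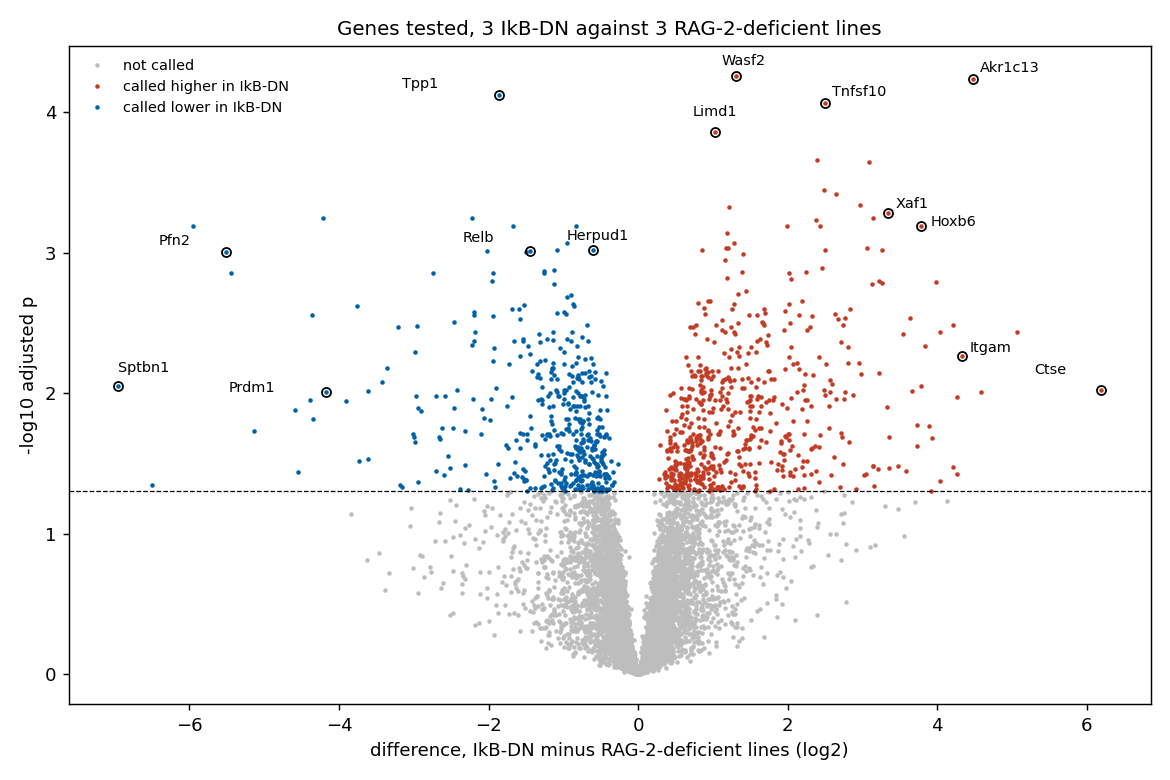
Each dot is a gene, placed by its log2 difference (IkB-DN minus RAG-2-deficient lines, horizontal) and the −log10 of its adjusted p (vertical), with the threshold as a dashed line. Of 9779 genes, 585 lie above the line on the right and 453 on the left; circled genes are among those named in the text.

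The other lines differed in how often they lay on the IkB-DN side. On the called probe sets, the share on which a line sample lay nearer to the IkB-DN than to the RAG-2-deficient mean was 32.3%, 44.5% and 56.2% in the 3 Artemis-deficient samples. It was 25.4% to 36.6% in the wild type samples, the highest being replicate 3, and 24.8% and 34.7% in the Artemis- and ATM-deficient samples. These probe sets were chosen for a difference between the IkB-DN and RAG-2-deficient lines, so the shares are a description. Over all 21005 tested probe sets measured in the 14 line samples, the IkB-DN samples stood apart from all 11 others on 1929 (9.18%), the RAG-2-deficient samples on 474 (2.26%), the Artemis-deficient samples on 210 and the wild type samples on 359.

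The Artemis-deficient lines without the dominant negative IkB carry unrepaired breaks too. Against them, 230 of 9768 genes (2.35%) were called, 125 higher (1.28%) and 105 lower (1.07%) in the IkB-DN lines. Over probe sets the count was 433 (2.00%), 218 higher (1.00%) and 215 lower (0.991%), and it ran from 59 without IkB-DN replicate 2 to 1057 without Artemis-deficient replicate 3, with 94, 116, 75 and 236 without IkB-DN replicates 1 and 3 and Artemis-deficient replicates 1 and 2. In Artemis-deficient against RAG-2-deficient lines 108 of 9768 genes (1.11%) were called, 77 of them higher (0.788%) and 31 lower (0.317%). Over probe sets, 0.687% were called higher and 0.461% lower in Artemis-deficient lines, 0.301% and 0.393% in Artemis- and ATM-deficient lines, and 0.420% and 0.406% in wild type lines, each against the RAG-2-deficient lines. The wild type count was 179 probe sets, and 110 without replicate 3. The last 2 comparisons and the main one share samples, so their values are given side by side.

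The inhibitors of NF-kB did not move as a group against the RAG-2-deficient lines. Of 11 tested genes of the IkB family and other brakes, 1 was higher (Tnfaip3), 2 were lower (Cyld, Nfkbib) and 8 were not called. Their median log2 was −0.18 beside 0.00 over all genes, of which 5.98% were higher and 4.63% lower. Against the Artemis-deficient lines 4 of the 11 were lower and none higher, where 1.07% of all genes were called lower. This list was chosen with earlier results of these data known, so its counts are a description.

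Nfkbie encodes IkB-epsilon, an inhibitor that NF-kB itself induces. Its levels (log2 of signal plus 6, as for all levels here) were 8.06, 7.84 and 7.97 in the IkB-DN lines, 8.01, 8.35 and 8.06 in the controls, and 10.28, 9.97 and 10.28 in the Artemis-deficient lines. The first 2 groups overlapped, and the Artemis-deficient samples lay above both. The difference was −0.18 ± 0.17 (SE, n = 3 and 3; adjusted p = 0.546, limma) from the RAG-2-deficient lines and −2.22 ± 0.17 (adjusted p = 0.000116) from the Artemis-deficient lines. The second call held with the IkB-DN arrays averaged (adjusted p = 0.0379), and a further Nfkbie probe set differed by −2.03.

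Nfkbid encodes IkB-NS, a nuclear member of the family. Its levels were 5.94, 5.54 and 5.79 in the IkB-DN lines and 5.65, 5.89 and 5.86 in the controls, against 8.25, 7.69 and 8.29 in the Artemis-deficient lines. The IkB-DN samples thus overlapped the controls and lay below the Artemis-deficient samples, by −2.32 ± 0.36 (adjusted p = 0.00904, limma). That call was lost without IkB-DN replicate 2 or Artemis-deficient replicate 1 (adjusted p up to 0.0613) and with the arrays averaged (0.499).

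Nfkbia encodes IkB-alpha, the main inhibitor of the Rela dimers. It measured 11.03, 10.81 and 11.13 in the IkB-DN lines, 11.28, 11.48 and 11.87 in the RAG-2-deficient lines and 12.22, 12.01 and 12.26 in the Artemis-deficient lines, with no overlap between any of the 3 groups. The difference from the RAG-2-deficient lines, −0.55 ± 0.18, was not called (adjusted p = 0.0783, limma), and all 5 probe sets of the gene were negative. The difference from the Artemis-deficient lines, −1.17 ± 0.18, was called (adjusted p = 0.0106), except without IkB-DN replicate 2 or Artemis-deficient replicate 1 (up to 0.0709) and with the arrays averaged (0.499). Since the source of the dominant negative gene is not given, this signal does not check its presence.

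Tnfaip3 encodes A20, an enzyme that switches the pathway off upstream of IkB. It measured 8.37, 8.15 and 7.96 in the IkB-DN lines, 7.20, 7.37 and 6.81 in the RAG-2-deficient lines and 8.85, 8.69 and 8.86 in the Artemis-deficient lines. The 3 groups did not overlap, and the IkB-DN samples lay between the others. Tnfaip3 rose by 1.03 ± 0.25 (adjusted p = 0.0242, limma) against the RAG-2-deficient lines, and a second probe set was called the same way. This call was lost without IkB-DN replicate 1 or 2 or RAG-2-deficient replicate 1 or 3 (adjusted p up to 0.0959) and with the arrays averaged (0.347).

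Cyld, a deubiquitinase that restrains the pathway, fell by 0.78 (adjusted p = 0.0157) from the RAG-2-deficient lines and by 0.87 (adjusted p = 0.0264, limma) from the Artemis-deficient lines. The first call was lost without IkB-DN replicate 2 or RAG-2-deficient replicate 1 (adjusted p up to 0.0712), and the second without any of the IkB-DN replicates or Artemis-deficient replicate 1 (up to 0.123). Nfkbib, the gene of IkB-beta, fell by 0.60 (adjusted p = 0.0296) and lost the call without each of the 6 arrays in turn (up to 0.0998). With the arrays averaged, Cyld and Nfkbib were not called against the controls (0.304 and 0.384). The other brakes were not called against either group: Nfkbiz differed by 0.25 from the RAG-2-deficient lines, Tnip1 by 0.21, Tnip2 by 0.83, Otulin by −0.23 and Trim30a by −1.32 (the last called without wild type replicate 3).

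**Figure D3:**
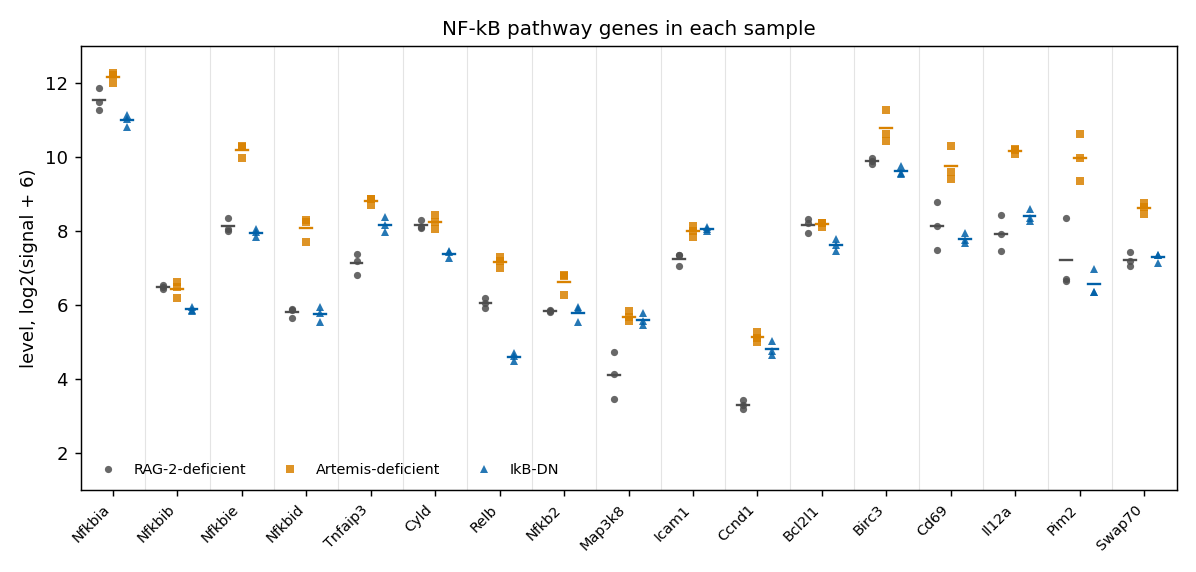
Levels (log2 of signal + 6) of NF-kB pathway genes in each sample of the RAG-2-deficient, Artemis-deficient and IkB-DN lines, with a short line at each group mean. In Nfkbie, Nfkbid, Il12a and Swap70 the IkB-DN samples sit at the level of the controls, in Relb they sit below both groups, and in Icam1, Ccnd1 and Map3k8 they sit with the Artemis-deficient samples.

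Of 4 tested subunits, Relb alone was called against the RAG-2-deficient lines, where 10.6% of all genes were called. Nfkb1 was not tested. Of the named genes called in every contrast between the IkB-DN, Artemis-deficient and RAG-2-deficient lines, Relb alone differed from the last in opposite directions. It was lower in the IkB-DN lines and higher in the Artemis-deficient lines. Relb encodes the subunit that pairs with the Nfkb2 product in the non-canonical branch, and it is known to be induced by NF-kB. It measured 4.48, 4.62 and 4.70 in the IkB-DN lines, 5.91, 6.06 and 6.18 in the RAG-2-deficient lines and 7.29, 6.99 and 7.18 in the Artemis-deficient lines. The 3 groups did not overlap. Relb fell by 1.45 ± 0.18 (adjusted p = 0.000968, limma) against the RAG-2-deficient lines, a call that held without any single array and was lost with the arrays averaged (0.105). Against the Artemis-deficient lines it fell by 2.55 (adjusted p = 0.000116), and this call held with the arrays averaged (0.035). The Artemis-deficient lines were higher than the RAG-2-deficient lines by 1.10 (adjusted p = 0.0131).

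Nfkb2 gave 2 probe sets. On the brighter one the IkB-DN lines differed from the RAG-2-deficient lines by −0.04 (adjusted p = 0.897, limma) and from the Artemis-deficient lines by −0.82 (adjusted p = 0.0295; up to 0.14 without any IkB-DN replicate or Artemis-deficient replicate 1). On the other the IkB-DN levels were 4.38, 4.09 and 4.19, the RAG-2-deficient levels 3.84, 4.60 and 4.47, and the Artemis-deficient levels 7.71, 7.56 and 7.16. The first 2 groups overlapped there, and the difference of −3.26 from the Artemis-deficient lines held with the arrays averaged (adjusted p = 0.0379). Rela (0.36, adjusted p = 0.128) and Rel (0.00, adjusted p = 0.994) were not called against the RAG-2-deficient lines.

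Of 16 tested kinases and adaptors that activate NF-kB, 1 was called, beside 10.6% of all genes. Map3k8 encodes Tpl2, a kinase of the MAP kinase and NF-kB pathways. It measured 5.78, 5.56 and 5.46 in the IkB-DN lines and 3.46, 4.72 and 4.15 in the controls, without overlap, and 5.67, 5.83 and 5.57 in the Artemis-deficient lines. Map3k8 rose by 1.49 ± 0.31 (adjusted p = 0.0124, limma; 0.055 without IkB-DN replicate 1 and 0.282 with the arrays averaged) and differed by −0.08 from the Artemis-deficient lines.

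Known NF-kB targets split. Of 21 tested, 3 were higher in the IkB-DN than in the RAG-2-deficient lines (Icam1, Ccnd1, Tnfaip3), 2 were lower (Relb, Bcl2l1) and 16 were not called, with a median of −0.04. Over all genes 5.98% were higher and 4.63% lower. In the Artemis-deficient lines 11 of the 21 were higher than in the RAG-2-deficient lines, where 0.788% of all genes were, with a median of 0.93. Against the Artemis-deficient lines, 9 of the 21 were lower in the IkB-DN lines, beside 1.07% of all genes, and none higher, 17 were negative, and the median was −0.81. The list was chosen with earlier results of these data known. The counts in and against the Artemis-deficient lines also share those samples, so they are a description.

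**Figure D4:**
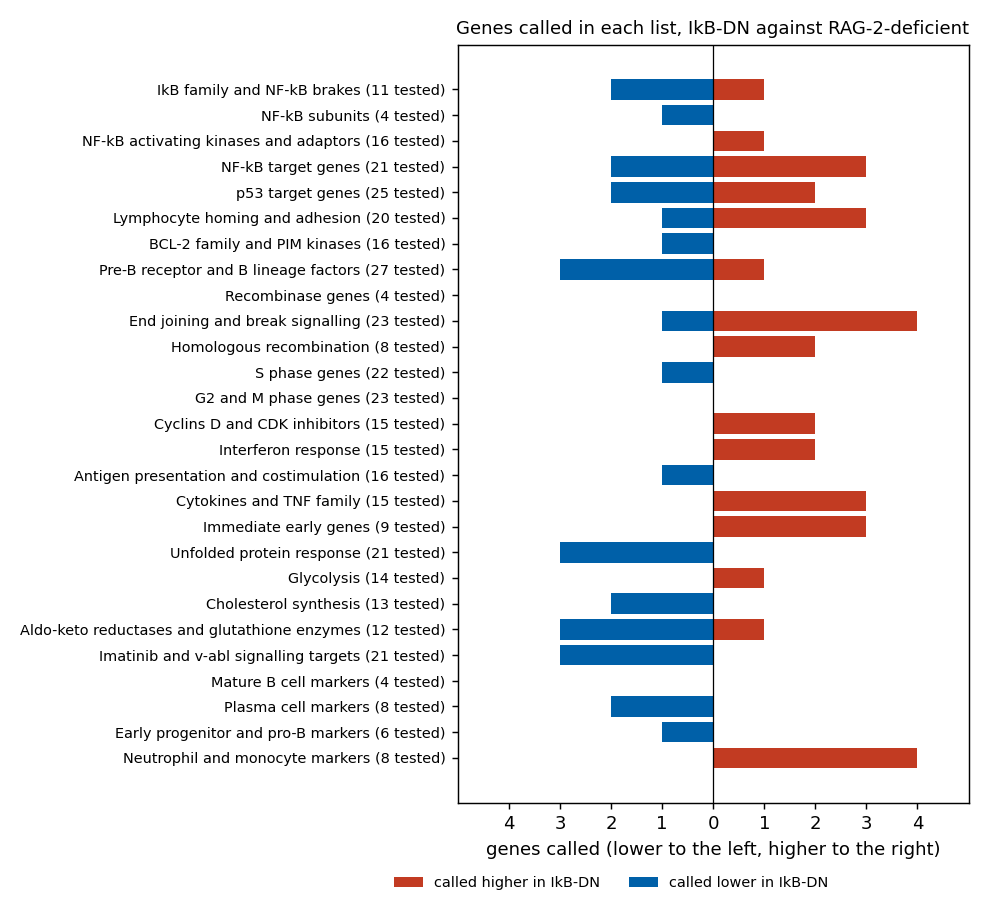
Genes called at an adjusted p below 0.05 (limma) in each list with 4 or more tested genes, higher in the IkB-DN than in the RAG-2-deficient lines to the right and lower to the left, with the number tested in brackets. No list has more than 4 genes called in 1 direction, a number reached by higher genes of end joining and break signalling and of neutrophil and monocyte markers. Of all genes, 5.98% were called higher and 4.63% lower.

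Icam1 encodes an adhesion molecule that binds the integrin LFA-1. It measured 8.01, 8.04 and 8.12 in the IkB-DN lines and 7.05, 7.36 and 7.34 in the controls. These groups did not overlap, and the Artemis-deficient levels of 7.83, 8.0 and 8.14 covered those of the IkB-DN lines. Icam1 rose by 0.80 ± 0.14 (adjusted p = 0.00556, limma; 0.212 with the arrays averaged), and its difference from the Artemis-deficient lines was 0.06.

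Ccnd1 encodes cyclin D1, a driver of the G1 phase. It measured 4.77, 4.64 and 5.03 in the IkB-DN lines, 3.30, 3.18 and 3.43 in the RAG-2-deficient lines and 5.11, 5.27 and 5.0 in the Artemis-deficient lines. The IkB-DN samples stood above all controls, by 1.51 ± 0.26 (adjusted p = 0.0047, limma; 0.183 with the arrays averaged). Wild type lines and Artemis- and ATM-deficient lines differed from the RAG-2-deficient lines by 2.12 (1.93 without wild type replicate 3) and 2.24, so that the controls were low against every other group.

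Bcl2l1 encodes the survival factor Bcl-xL. Its levels of 7.45, 7.61 and 7.79 in the IkB-DN lines lay below the control levels of 8.31, 7.95 and 8.23, and it fell by 0.55 ± 0.14 (adjusted p = 0.0278, limma). The call was lost without IkB-DN replicate 1 or 2 or RAG-2-deficient replicate 1 or 3 (up to 0.108) and with the arrays averaged (0.332). Bcl2, the founding member of the family, was at 11.51 and 11.43 on average and was not called.

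Further targets were near the controls and below the Artemis-deficient lines; these were chosen after their values were seen. Pim2, a survival kinase, measured 6.98, 6.34 and 6.36 in the IkB-DN lines, 8.34, 6.69 and 6.64 in the RAG-2-deficient lines and 9.34, 9.98 and 10.62 in the Artemis-deficient lines. Its difference was −0.67 from the RAG-2-deficient lines (adjusted p = 0.484) and −3.42 from the Artemis-deficient lines (adjusted p = 0.0114, limma). Cd69 encodes a receptor that retains lymphocytes in tissues, and it differed by −0.33 and −1.97. Il12a, a cytokine subunit, differed by 0.47 and −1.76. Swap70, an adaptor of B cell migration, differed by 0.06 and −1.33, and Birc3, an inhibitor of apoptosis, by −0.27 and −1.14. Each of these genes was called against the Artemis-deficient lines only, and each lost that call without IkB-DN replicate 2 (adjusted p up to 0.101 over single arrays left out).

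The largest rises among called genes measured in all 6 samples, with no overlap between the groups, were in genes of many kinds. Low signals lie near the pseudocount, and between pseudocounts of 1 and 32 the size of 50 of the 107 named calls moved by over 1.5 times, so sizes and their order hold for this scale only. Ctse encodes the protease cathepsin E. It measured 11.46, 11.49 and 11.48 in the IkB-DN lines and 6.23, 4.29 and 5.32 in the controls, a rise of 6.20 ± 1.22 (adjusted p = 0.00957, limma; 0.261 with the arrays averaged). The groups were far apart, but the Artemis-deficient samples were at 11.05, 11.09 and 10.87, and a second probe set of Ctse differed by −1.15 without a call. Akr1c13, an aldo-keto reductase, measured 7.77, 7.86 and 8.0 against 4.32, 2.80 and 3.08 in the RAG-2-deficient lines and rose by 4.47 ± 0.35 (adjusted p = 5.87e-05). It was low in the RAG-2-deficient lines alone: the Artemis-deficient, Artemis- and ATM-deficient and wild type lines exceeded them by 4.62, 4.17 and 4.20. Its call held with the arrays averaged (adjusted p = 0.0225).

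Retreg1, a receptor for turnover of the endoplasmic reticulum, measured 8.91, 9.06 and 8.98 in the IkB-DN lines and 3.24, 4.31 and 4.20 in the controls and rose by 5.06 (adjusted p = 0.00366, limma). The Artemis-deficient samples were at 6.21, 5.21 and 9.35, so that replicate 3 alone was near the IkB-DN level. Replicate 3 was also the nearest for 1700048O20Rik (a rise of 4.58; Artemis-deficient levels 6.31, 6.15 and 8.75) and for Osbpl3, a sterol-binding protein (a rise of 4.27; 3.71 and 7.08 in Artemis-deficient replicates 2 and 3). The collagen-modifying enzyme gene Plod2 (4.27), the phospholipase gene Plch1 (4.04), the non-coding 1500002F19Rik (4.21), the zinc finger gene Zfp182 (4.21), the ubiquitin ligase gene Rnf130 (3.93), the kynureninase gene Kynu (3.91), Sestd1 (3.89) and the decarboxylase gene Ddc (3.74) also rose. Zfp182, Plch1 and Kynu lost the call without each of the 6 arrays in turn, Rnf130 and Sestd1 without each but RAG-2-deficient replicate 3, Plod2 without any IkB-DN replicate, and Ddc without IkB-DN replicate 2 or 3 or RAG-2-deficient replicate 2 (adjusted p up to 0.153, limma). Retreg1, 1700048O20Rik, Osbpl3 and 1500002F19Rik kept it without any single array.

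Hoxb6 encodes a homeobox factor of early haematopoietic cells. Outside the IkB-DN samples its measured levels were 4.03 or less, near the pseudocount. The gene thus passed the filter on low signals through the IkB-DN samples alone, and its calls are a description. Its levels of 6.50, 6.80 and 6.78 in the IkB-DN lines stood above 2.99, 2.95 and 2.79 in the RAG-2-deficient lines and 2.86, 3.39 and 4.03 in the Artemis-deficient lines. Hoxb6 rose by 3.79 ± 0.40 (adjusted p = 0.000652, limma) against the first and by 3.27 (adjusted p = 0.00487) against the second. It held without any single array and was lost with the arrays averaged (0.12 and 0.495).

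Chosen in the same way, the falls included Sptbn1, the gene of a spectrin that lines the cell membrane. It measured 3.71, 2.94 and 3.86 in the IkB-DN lines and 9.99, 10.65 and 10.72 in the controls, a fall of 6.95 ± 1.35 (adjusted p = 0.00883, limma; 0.248 with the arrays averaged). The IkB-DN values are near the pseudocount, and the difference was −7.89 with a pseudocount of 1 and −5.25 with 32. Artemis-deficient replicates 1 and 2 were at 10.48 and 10.63 and replicate 3 at 3.76, inside the IkB-DN range. Trim34a (a fall of 4.55, with a second probe set called the other way at 0.91) showed the same split, with Artemis-deficient levels of 8.60, 8.94 and 4.46. Eng, the gene of the TGF-beta co-receptor endoglin, was at 3.87, 3.60 and 3.67 in the IkB-DN lines and at 8.42, 8.71 and 4.67 in the Artemis-deficient lines, and it fell by 3.91 from the RAG-2-deficient lines. The call of Trim34a was lost without each of the 6 arrays in turn (adjusted p up to 0.0995, limma).

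Pfn2 encodes profilin 2, which binds actin. Its levels were 2.73, 3.43 and 3.73 in the IkB-DN lines, 8.94, 8.85 and 8.66 in the RAG-2-deficient lines and 7.06, 9.78 and 7.05 in the Artemis-deficient lines. The IkB-DN samples lay below every other sample of these groups, and Pfn2 fell by 5.52 ± 0.69 (adjusted p = 0.000988, limma; 0.105 with the arrays averaged) from the controls and by 4.67 (adjusted p = 0.00829) from the Artemis-deficient lines. The first difference was −6.70 with a pseudocount of 1 and −3.72 with 32. A total of 2 further probe sets were called the same way. Cpeb2, a regulator of translation, fell by 5.44 (adjusted p = 0.00139), and it was also called lower in the Artemis-deficient lines than in the controls (−3.92). Camk4 (a fall of 4.38) and Cacna1e (4.35), a calcium-dependent kinase and a calcium channel, fell. Camk4 lost the call without IkB-DN replicate 2 and Cacna1e without each array but RAG-2-deficient replicate 3 (adjusted p up to 0.0534, limma). Trim5 (−4.22), Gadd45g (−3.42), Osr2 (−3.36), Gstt2 (−3.74), Igkv6-20 (−3.76), Vsir (−3.21) and the probe set listed for Mir1931 (−3.61) completed the 15 largest such falls with Prdm1; of these Gstt2 lost the call without each of the 6 arrays in turn (up to 0.089).

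A total of 164 genes was called against both the RAG-2-deficient and the Artemis-deficient lines, 101 higher than both and 63 lower than both, and 873 were called against the RAG-2-deficient lines and not against the Artemis-deficient lines. None of the 164 genes called against both was higher than one group and lower than the other. With the largest differences from the Artemis-deficient lines, Crisp3 (3.95), Emp1 (3.88), Lyz2 (3.40), Hoxb6 (3.27), Igsf5 (3.27), Trem1 (3.11), Rgs8 (3.04) and Cabp4 (2.95) were higher. Tceal9 (−4.79), Pfn2 (−4.67), Nuak1 (−3.79), Eng (−3.56), Gadd45g (−3.20), Trim5 (−3.03), Add3 (−2.71) and Vsir (−2.59) were lower. Trim5 had no measured signal in Artemis-deficient replicate 3 and was at 7.18 and 5.35 in Artemis-deficient replicates 1 and 2. Of these 16 genes, Crisp3, Lyz2, Hoxb6, Trem1, Cabp4, Pfn2 and Add3 kept the call against the Artemis-deficient lines without any single array. For Lyz2, Hoxb6 and Trem1, which were high in the IkB-DN samples alone, the calls are a description. Tceal9 had no measured signal in IkB-DN replicate 2 and Artemis-deficient replicate 3. It kept the call in the fits that tested it, but fits without a further sample of either group could not test it. None of the 16 genes kept the call with the arrays averaged. Against the RAG-2-deficient lines, Crisp3, Emp1, Rgs8 and Nuak1 lost the call without each of the 6 arrays but RAG-2-deficient replicate 1 (up to 0.121).

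Tnfsf10 encodes TRAIL, a ligand of the TNF family that can induce apoptosis. It measured 7.0, 7.16 and 6.92 in the IkB-DN lines, 4.48, 4.3 and 4.82 in the RAG-2-deficient lines and 5.12, 5.21 and 4.99 in the Artemis-deficient lines. The IkB-DN samples lay above every sample of the other groups, by 2.49 ± 0.21 (adjusted p = 8.58e-05, limma) and 1.92 (adjusted p = 0.00192). It was among the 7 genes whose call against the RAG-2-deficient lines held with the arrays averaged (adjusted p = 0.0343). The others were Akr1c13, Tceal9 and, chosen after their values were seen, Wasf2, Limd1, Ahcyl2 and Tpp1.

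Tpp1 encodes a lysosomal peptidase. It measured 8.24, 7.77 and 7.74 in the IkB-DN lines against 9.64, 9.77 and 9.93 in the RAG-2-deficient lines and 10.00, 10.06 and 9.84 in the Artemis-deficient lines. The IkB-DN samples lay below both groups, and with the arrays averaged the falls of 1.86 and 2.05 were both called (adjusted p = 0.00598 and 0.0173, limma). Limd1, a scaffold protein gene, was higher in the IkB-DN lines than in the controls by 1.03 and than in the Artemis-deficient lines by 0.72. Wasf2, an actin regulator, rose by 1.31 and Ahcyl2 by 2.39, while the Artemis-deficient lines also exceeded the controls, by 0.95 and 1.98. Wasf2 was at 10.12 to 10.33 in wild type, 10.01 and 10.09 in Artemis- and ATM-deficient and 9.14 to 9.28 in RAG-2-deficient lines. The controls were thus low against every other group. Ahcyl2 was at 4.84 to 5.67 in wild type, 6.05 and 6.24 in Artemis- and ATM-deficient and 4.94 to 5.11 in RAG-2-deficient lines. Tceal9 was measured in 2 of the 3 IkB-DN samples, at 3.32 and 3.95, against 9.38, 9.62 and 9.75 in the controls. It differed by −5.95 and stands outside the 15 falls because of the missing sample.

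Of 15 tested cytokine and TNF family genes, 3 were higher and none lower, with a median of 0.47, beside 5.98% of all genes higher. Beside Tnfsf10 these were Il4ra, a receptor chain for interleukin 4 (1.71), and Tnfrsf19, an orphan TNF receptor (1.07). Il4ra lost the call without IkB-DN replicate 1, 2 or 3 or RAG-2-deficient replicate 3 (adjusted p up to 0.0894), and Tnfrsf19 without each of the 6 arrays but RAG-2-deficient replicate 2 (up to 0.146). Ltb, the gene of lymphotoxin beta, measured 9.49, 9.28 and 8.60 against 7.91, 5.73 and 6.29 and was not called (2.48, adjusted p = 0.0501, limma; 0.0201 without wild type replicate 3).

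Markers of pre-B cells were high in both groups. The signals of Cd79a, a chain of the B cell receptor, were 4940 to 4988 in the IkB-DN lines and 4903 to 6626 in the RAG-2-deficient lines, and those of Blnk, its adaptor, were 7043 to 7589 and 6637 to 7897. Of 27 tested pre-B receptor genes and B lineage factors, 1 was higher and 3 were lower, with a median of 0.07. The shares over all genes were 5.98% higher and 4.63% lower. Igll1, the gene of the surrogate light chain lambda 5, measured 11.83, 11.93 and 12.11 against 9.36, 10.95 and 9.50, without overlap, and rose by 2.02 ± 0.48 (adjusted p = 0.0215, limma). Irf4, a factor of light chain opening and plasma cell fate, fell by 0.90, Foxo1, which drives Rag1, by 0.48, and Cd24a by 0.27. Cd24a lost the call without each of the 6 arrays in turn, Igll1 and Irf4 without each but RAG-2-deficient replicate 2, and Foxo1 without IkB-DN replicate 2 or 3 or RAG-2-deficient replicate 1 or 3 (adjusted p up to 0.156, limma).

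None of 4 recombinase genes was called, and 3 had an unadjusted p under 0.05 (limma). Dntt, which adds bases at the joins, measured 11.29, 11.35 and 11.36 in the IkB-DN lines and 8.13, 10.64 and 6.95 in the controls (2.76, adjusted p = 0.0708, limma; 0.0333 without wild type replicate 3). Rag1 differed by 0.94 (adjusted p = 0.132) and Hmgb2 by −0.24. Rag2, the gene deleted in the controls, measured 8.85, 8.90 and 8.95 in the IkB-DN lines and 4.69, 8.03 and 8.38 in the controls. RAG-2-deficient replicate 1 was thus low and the other controls were near the IkB-DN lines. Whether the probes lie in the deleted part was not tested, so this level does not check the labels, and Artemis (Dclre1c) was unnamed here on probe sets that name 1 gene. Atm differed by −0.20.

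Of 8 tested genes of neutrophils and monocytes, 4 rose (Itgam, Lyz2, Lyz1, Elane), none fell and 4 were not called, with a median of 0.82; over all genes 5.98% were called higher. Of those not called, Fcgr3, an Fc receptor, differed by −2.19 (adjusted p = 0.446, limma) without overlap, Ngp by −0.46 and Adgre1 by −0.15. The signals of Csf1r, also not called, were 118.9 to 167.3 in the IkB-DN lines and 65.28 to 90.60 in the controls, without overlap. Itgam encodes the integrin CD11b. It measured 8.84, 8.62 and 8.77 in the IkB-DN lines and 5.48, 4.21 and 3.56 in the controls, a rise of 4.33 ± 0.76 (adjusted p = 0.00547, limma; 0.211 with the arrays averaged). The Artemis-deficient samples were at 5.81, 5.77 and 7.85, and the Artemis- and ATM-deficient lines exceeded the controls by 3.91. Lyz2, a lysozyme gene, was at 6.50, 6.63 and 7.04 against 4.13, 3.63 and 2.75 in the controls and 3.30, 3.82 and 2.85 in the Artemis-deficient lines. The IkB-DN samples lay above both, and Lyz2 rose by 3.22 ± 0.44 (adjusted p = 0.0016). Lyz1, its neighbour in sequence, rose by 3.99 with 2 controls measured, which keeps it outside the 15 rises, and Elane, neutrophil elastase, by 0.95. Both lysozyme genes are near-identical, so their signals may not be separate. They were high in the IkB-DN samples alone and passed the filter on low signals through them. Their calls, and the count of rises that holds them, are thus a description. Elane lost the call without each of the 6 arrays but IkB-DN replicate 2 (adjusted p up to 0.135, limma).

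Beside this, the signals of some defining myeloid markers were low on the 6 arrays. Mpo was at 5.20 or less, S100a8 at 5.72 or less, S100a9 at 1.42 or less and Cd14 at 2.54 or less, where measured. Csf3r, not tested, was at 12.51 to 20.30 in the IkB-DN lines and had no measured signal in the controls. The summed signal of the 17 named markers was 850.8 to 967.3 in the IkB-DN lines and 203.0 to 860.0 in the RAG-2-deficient lines, the last value including 614.9 of Fcgr3 in replicate 1. Trem1, a receptor of neutrophils and monocytes that belonged to no list, measured 6.86, 6.12 and 5.80 against 3.25, 3.39 and 2.96 and rose by 3.06 (adjusted p = 0.00093, limma). It too was high in the IkB-DN samples alone and passed the filter through them, so its call is a description. Of 16 T and NK cell markers 3 were tested and 1 rose, where 5.98% of all genes were called higher. This was Cd244a, an NK receptor, by 2.44 (adjusted p = 0.000652, limma). The summed signal over 12 named markers was 743.1 to 951.8 in the IkB-DN lines against 288.1 to 405.5 in the controls. That sum includes Klrd1, not called, at 419.2 to 599.7 in the IkB-DN lines and 163.0 to 252.8 in the controls, without overlap. All 3 tested genes differed in the positive direction, with a median of 1.38. Nkg7, Cd3e and Gzmb had no measured signal in the IkB-DN lines. Erythroid and dendritic markers had 1 tested gene each, Tfrc (0.51) and Tcf4 (0.36), neither called. Whether fewer cells of a type or less RNA per cell lies behind a level cannot be told apart in bulk samples, and the part of other cells in these results was not tested.

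**Figure D5:**
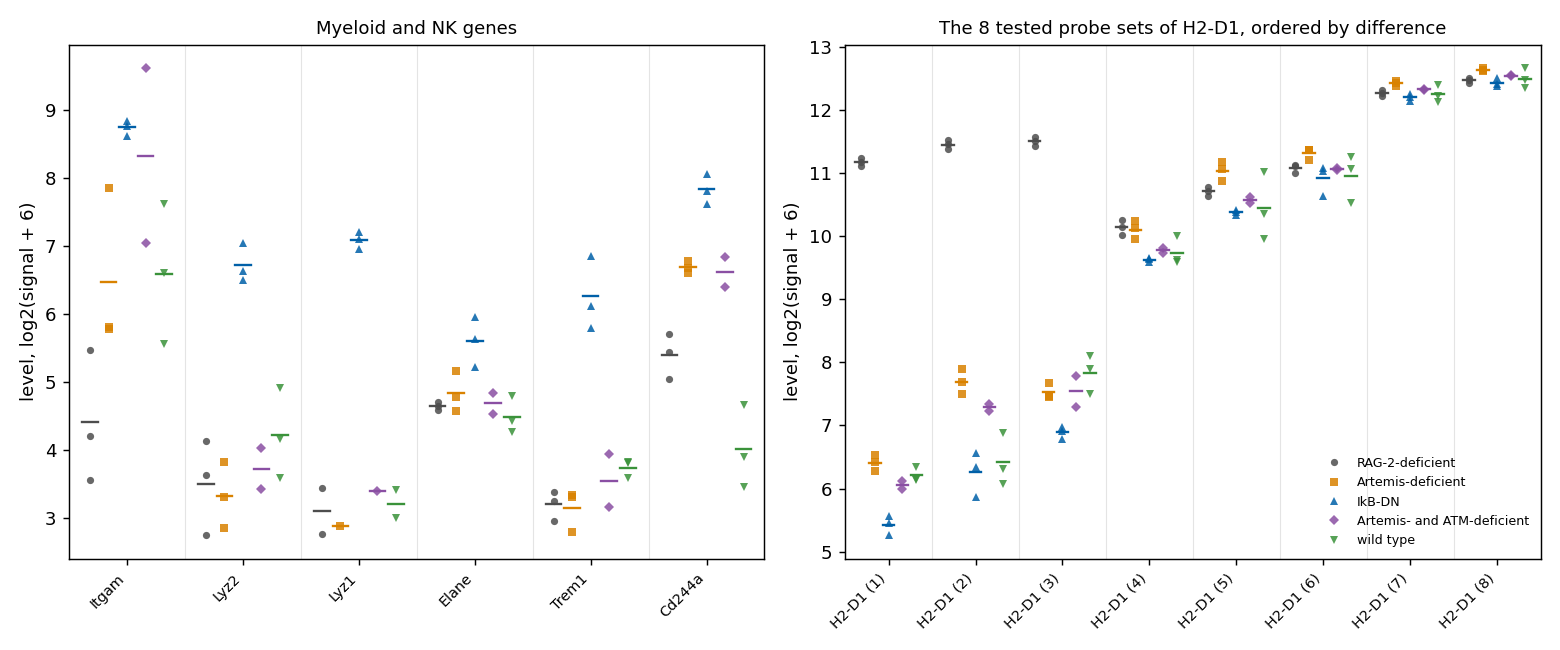
Levels (log2 of signal + 6) in all 14 line samples, with a short line at each group mean, of 6 myeloid and NK genes (left) and of the 8 tested probe sets of H2-D1, numbered by their difference (right). Lyz2, Lyz1 and Trem1 are high in the IkB-DN samples alone, and on 3 probe sets of H2-D1 the RAG-2-deficient samples stand above all 11 others.

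Of 6 tested progenitor markers 1 fell and 0 rose, but 4 differed in the positive direction, with a median of 0.22. Of 8 plasma cell markers 2 fell and 0 rose, with a median of −0.81. Over all genes 5.98% were called higher and 4.63% lower. The signals of the progenitor marker Erg, not called, were 828.9 to 1191 in the IkB-DN lines and 27.31 to 551.2 in the controls, without overlap. Bst1, an ectoenzyme of stromal and early B cells, fell by 1.94 ± 0.30 (adjusted p = 0.0028, limma), from 10.90, 10.20 and 10.13 in the RAG-2-deficient lines to 8.61, 8.31 and 8.47 in the IkB-DN lines. The plasma cell markers that fell were Irf4 and Prdm1, the gene of the plasma cell factor Blimp-1. Prdm1 measured 4.02, 4.48 and 4.02 in the IkB-DN lines and 9.39, 8.20 and 7.44 in the controls, far apart, and fell by 4.17 ± 0.83 (adjusted p = 0.00973). The Artemis-deficient samples were at 5.54, 4.87 and 7.32, between these groups. RAG-2-deficient replicate 1 stood apart on plasma cell markers: its signal of Jchain, the joining chain of antibodies, was 2377 beside 30.5 and 19.3 in the other controls, that of Xbp1 2787 beside 966.5 and 563.2, and that of Sdc1 1311 beside 244.4 and 363.0. The summed signal of the 8 markers was 8185 to 8675 in the IkB-DN lines and 8338 to 16290 in the controls. Without that replicate Prdm1 kept its call and Irf4 lost it; the part of plasma cell RNA in these falls was not tested.

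Of 25 tested p53 targets, 2 were higher and 2 lower, with a median of 0.08, where 5.98% of all genes were higher and 4.63% lower. Gtse1, which restrains p53 in G2, rose by 2.12 (adjusted p = 0.00609, limma) and Ddb2, which recognises damaged bases, by 1.20. Ercc5, a repair nuclease, fell by 1.73 and Rrm2b, a ribonucleotide reductase subunit, by 1.15. Ddb2 lost the call without IkB-DN replicate 2 (adjusted p = 0.0569), Rrm2b without IkB-DN replicate 2 or 3 or RAG-2-deficient replicate 1, and Ercc5 without each of the 6 arrays but RAG-2-deficient replicate 2 (up to 0.087). Cdkn1a, the gene of p21, differed by 0.20 with an SE of 1.29.

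Genes of end joining and break signalling gave 4 higher and 1 lower of 23, with a median of −0.05, beside 5.98% higher and 4.63% lower over all genes. Parp1, which senses strand breaks, rose by 1.5, Prkdc, the kinase that recruits Artemis, by 0.77 and Atr, a checkpoint kinase, by 0.68, and Poll, a repair polymerase, by 0.66. Rad50, part of the complex that tethers ends, fell by 1.26 (adjusted p = 0.0389, limma). Rad50 and Atr lost the call without each of the 6 arrays in turn, Parp1 without each but RAG-2-deficient replicate 2, and Prkdc without each but RAG-2-deficient replicate 3 (up to 0.153). Of 8 homologous recombination genes, Rad51b rose by 2.65 (adjusted p = 0.0111) and Palb2 by 0.82 (up to 0.104 without IkB-DN replicate 1 or 2 or RAG-2-deficient replicate 1 or 3), and none fell.

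Cell cycle genes were mostly not called, where 10.6% of all genes were called. None of 23 G2 and M phase genes was called, and none passed an unadjusted p of 0.05 (limma), although all 23 differences were negative, with a median of −1.0. Per sample, the summed signal of the 23 genes was 1528, 981.9 and 1132 in the IkB-DN lines and 2860, 5401 and 1059 in the controls. The groups overlapped, because RAG-2-deficient replicate 3 was as low as the IkB-DN samples. Birc5, which encodes survivin, differed by −2.03 (adjusted p = 0.242) and Ccnb2, a mitotic cyclin, by −1.70. Rfc3, a clamp loader subunit, was the only one of 22 S phase genes called and fell by 1.22 (adjusted p = 0.00412). Of 15 cyclins D and CDK inhibitors, Ccnd1 and Cdk6 rose, the latter by 1.76 (adjusted p = 0.0496, lost without each of the 6 arrays in turn).

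Immediate early genes gave 3 rises of 9 and no fall, with a median of 0.65, beside 5.98% rises over all genes. Jun, a subunit of AP-1, measured 10.39, 10.27 and 10.01 in the IkB-DN lines and 6.67, 7.61 and 8.19 in the controls, without overlap, and rose by 2.74 ± 0.43 (adjusted p = 0.00329, limma; 0.172 with the arrays averaged). The Artemis-deficient samples, at 9.64, 8.83 and 9.60, lay between them. Ier2 rose by 0.65 and Jund by 0.44, but Ier2 lost the call without any IkB-DN replicate or RAG-2-deficient replicate 1, and Jund without each of the 6 arrays but RAG-2-deficient replicate 3 (adjusted p up to 0.129).

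Of 15 interferon response genes 2 rose and none fell, with a median of −0.10, where 5.98% of all genes rose and 4.63% fell. Ifitm3, a membrane protein that restricts viral entry, measured 7.14, 7.03 and 7.30 in the IkB-DN lines, 4.57, 4.19 and 2.91 in the RAG-2-deficient lines and 3.82, 4.55 and 5.27 in the Artemis-deficient lines. The IkB-DN samples lay above both groups, by 3.27 ± 0.45 (adjusted p = 0.00166, limma) and 2.61 (adjusted p = 0.0155). The second call was lost without any IkB-DN replicate or Artemis-deficient replicate 1 (up to 0.0744), and a stricter filter on low signals ended both. Xaf1 rose by 3.34, but a second Xaf1 probe set was called lower (−2.18). Among 16 genes of antigen presentation, Nlrc5, the activator of class I genes, fell by 0.97 (adjusted p = 0.0152; up to 0.0651 without IkB-DN replicate 1 or 2 or RAG-2-deficient replicate 2), and none rose.

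Adhesion and homing genes gave 3 rises (Icam1, Cd47, Coro1a) and 1 fall (Selplg) of 20, with a median of 0.01. Of all genes, 5.98% rose and 4.63% fell. Cd47, the signal that protects cells from phagocytosis, measured 11.42, 11.36 and 11.45 against 10.44, 10.27 and 10.04 and rose by 1.16 ± 0.20 (adjusted p = 0.00517, limma). Selplg, the ligand of P-selectin, measured 8.38, 8.42 and 8.44 against 10.18, 9.13 and 9.53 and fell by 1.20 ± 0.24 (adjusted p = 0.0104). Neither pair of groups overlapped. Coro1a, an actin regulator of lymphocytes, rose by 0.86 (adjusted p up to 0.0956 without each of the 6 arrays but RAG-2-deficient replicate 2).

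In the lists on metabolism, on the unfolded protein response and on v-abl signalling most calls were falls. These lists were chosen with earlier results of these data known. Of all genes, 5.98% were called higher and 4.63% lower. Socs2, which is induced by STAT5 downstream of Abl kinases, measured 9.82, 9.94 and 9.74 in the IkB-DN lines and 11.22, 10.68 and 10.99 in the controls and fell by 1.13 ± 0.15 (adjusted p = 0.00133, limma), with 4 further probe sets called the same way. With Bcl2l1 and Foxo1 it made 3 falls of 21 tested genes and no rise. Herpud1, a gene of the degradation of misfolded proteins, fell by 0.61 ± 0.07 (adjusted p = 0.000961), and with Atf6 (1.14) and Hsp90b1 (0.87) it made 3 falls of 21 genes of the unfolded protein response. Atf6 lost its call without IkB-DN replicate 2 (0.0564) and Hsp90b1 without each of the 6 arrays but RAG-2-deficient replicate 2 (up to 0.0726). Hmgcs1 (0.97) and Insig1 (1.13; up to 0.127 without IkB-DN replicate 1 or 2 or RAG-2-deficient replicate 1) fell among 13 genes of cholesterol synthesis. In the list of aldo-keto reductases and glutathione enzymes Akr1c13 rose, and Akr1a1 (0.47), Gstt2 and Hmox1 (1.16; up to 0.163 without each array but RAG-2-deficient replicate 2) fell, of 12 tested. Pfkm alone was called among 14 glycolysis genes, a rise of 1.61 (up to 0.0884 without each array but RAG-2-deficient replicate 3).

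The probe sets that held with the IkB-DN arrays averaged included some on which different probe sets of 1 gene disagreed. H2-D1 encodes a class I molecule of the major histocompatibility complex, whose sequence is known to vary between mouse strains, and 8 of its probe sets were tested. On 3 of them the IkB-DN lines differed from the RAG-2-deficient lines by −4.62, −5.20 and −5.76, and all 3 were called with the arrays averaged (adjusted p up to 4.68e-05, limma). On the most different of these, the levels were 5.45, 5.26 and 5.56 in the IkB-DN lines, 11.11, 11.18 and 11.25 in the RAG-2-deficient lines and 6.42, 6.53 and 6.28 in the Artemis-deficient lines. Wild type lines were at 6.14, 6.15 and 6.34, so that only the RAG-2-deficient samples were high. On the brightest probe set of H2-D1 the difference was −0.04. Of the 4 probe sets of Pdxdc1, 1 differed by −4.69 and 1 by −1.38, both called, and on the first the pattern was alike, with the RAG-2-deficient samples at 9.68, 9.02 and 9.66 and all 11 others at 4.99 or less, while the brightest probe set differed by 0.44. These genes were chosen after their values were seen.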

How the data were processed

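Values were log10 signals of an Affymetrix array deposited by the authors in 1 table; that the base is 10 was inferred from the values. The labels name GeneChip Operating Software, and no source used here gives the summary method, background correction or scaling. Signals were returned to the linear scale, 6 (the 25th percentile of line signals) was added, and log2 taken. Medians per array were 26.8 to 27.7. Probe sets needed 2 or more line samples at or above their array's median. All 14 line samples of 5 groups entered 1 fit (limma 3.58.1 in R 4.3.3, lmFit and eBayes with trend, 9 residual and 3.10 prior df; Benjamini-Hochberg, adjusted p below 0.05); technical arrays were averaged, and marrow samples were not analysed here. Scripts were tested on simulated data. Of the probe sets, 34294 name 1 gene, 916 several and 8990 none; a gene is represented by its brightest probe set. On the 6 arrays 14.8 to 15.0% of cells were empty and treated as missing. Named genes are the 15 largest changes per direction among called genes measured in all 6 samples with no overlap between groups, up to 4 called genes per list, whole NF-kB and recombinase lists, and 8 per direction against Artemis-deficient lines. Members and the 31 lists (372 of 531 genes tested) were chosen with earlier results of these data known. The number of arrays limits the precision. Figures used matplotlib 3.10.9.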

Additional observations from a re-analysis of the deposited data

Results flagged for a closer look

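The change against the RAG-2-deficient lines differed between IkB-DN and Artemis-deficient lines for 230 genes, by the direct contrast of those groups (limma, adjusted p below 0.05). Among the NF-kB subunits and brakes, the IkB-DN change was lower for Relb by a log2 of −2.55, for Nfkbid by −2.32, for Nfkbie by −2.22, for Nfkbia by −1.17, for Cyld by −0.87 and for Nfkb2 by −0.82. Relb and Nfkbie kept this difference with the IkB-DN arrays averaged. Groups of 3 are too small for the test of outlying samples.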

How the results depend on the processing

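No paired analysis was possible because the replicate numbers follow accession order and the titles of the groups share no replicate numbers that pair samples. With the IkB-DN arrays averaged into 1 sample, calls went from 2145 to 24 probe sets against RAG-2-deficient lines, from 433 to 5 against Artemis-deficient lines, from 249 to 82 for Artemis-deficient against RAG-2-deficient lines, and from 55 to 2 among list genes. With only the 2 groups compared in the fit, IkB-DN against RAG-2-deficient lines gave 3114 probe sets, and 78 list genes were called. The counts against and of the Artemis-deficient lines were then 823 and 105. Leaving out 1 replicate gave 844 to 2420, 59 to 1057, 97 to 204 and 25 to 62 calls. Other pseudocounts, filters, normalization and variance models kept these counts within 1.5 times. Without wild type replicate 3, whose title is ATM-2A, an alternative chosen after seeing the data, they were 2409, 593, 350 and 59. Of 107 named genes called, 54 were called in every fit without 1 replicate, 7 with the arrays averaged, and 84 under every other alternative. A named gene with empty cells could not be tested in every fit without 1 replicate, and the 54 are counted on the fits that tested them. Signs turned only for differences that were not called. Against RAG-2-deficient lines these were Rel with a pseudocount of 32 (−0.023) and, over the fits without 1 replicate, Rel (−0.44 to 0.30), Nfkbid (−0.14 to 0.061), Nfkb2 (−0.13 to 0.086), Hmgb2 (−0.56 to 0.043) and Swap70 (−0.034 to 0.17). Against Artemis-deficient lines they were, over the same fits, Rel (−0.29 to 0.022), Rela (−0.0098 to 0.21), Hmox1 (−0.060 to 0.18), Atm (−0.14 to 0.10), Icam1 (−0.018 to 0.14), Hmgb2 (−0.36 to 0.11), Parp1 (−0.090 to 0.40), Tfrc (−0.0025 to 0.41) and Akr1c13 (−0.35 to 0.13). The cause was not tested. Low signals limit what can be read: 658 of the kept probe sets have an empty cell on the 6 arrays.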

Other observations

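Some gene families outside the lists, chosen after their values were seen, had called members in 1 direction only. Of 14 tested genes of intraflagellar transport, which builds cilia, 5 were higher in the IkB-DN than in the RAG-2-deficient lines (Ift81 by 1.74, Ift57 by 1.41, Ift88 by 1.40, Ift74 by 1.11 and Ift122 by 0.70) and none lower, with a median of 0.29. Of 47 tested proteasome genes, 6 were lower (Psma3, Psmc1, Psmc5, Psmd1, Psmd7 and Psme4) and none higher, with a median of −0.20. Of 7 tested immunoglobulin genes, 4 were lower: Igkv6-20 by −3.76, Igkv8-30 by −3.00, Igk by −1.49 and Ighm by −1.08. Over all genes 5.98% were called higher and 4.63% lower.

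On a probe set with no gene name here the RAG-2-deficient lines, with 2 of 3 samples measured, were at 4.0 and 2.73, and the Artemis- and ATM-deficient lines at 4.80 and 4.37. The IkB-DN lines were at 12.77 to 12.97, and the wild type and Artemis-deficient lines, at 12.43 to 13.25 and 12.69 to 13.13, were at their level. The difference of 9.49 between IkB-DN and RAG-2-deficient lines was called with the arrays averaged (adjusted p = 9.04e-05, limma).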
